A study of Caenorhabditis elegans with 4 samples.

Results

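The genes described here encode the cathepsins, the aspartic proteases related to them and the subunits of the vacuolar H+-ATPase (V-ATPase) of *C. elegans*. They were taken by symbol: every gene whose name begins with cpr-, cpl-, cpz- or asp- was counted as a protease gene, and every gene whose name begins with vha- as a V-ATPase gene. The rule found 48 genes of the 46745 in the count table, of which 28 were protease genes and 20 were V-ATPase genes. RNA of entire bodies was sequenced in 2 samples of animals fed the lactic acid bacterium *L. paracasei* subsp. *paracasei* 2004 (hereafter 2004) and in 2 samples of animals fed *E. coli* OP50, on which worms are normally kept in the laboratory. All animals were wild type (Bristol strain N2), were given their food on Day 1 of adulthood and kept on it for 3 days, and were pooled within a sample, so that each value is an average over many animals. Nothing states that the 2 samples of a food came from separate cultures, and p-values therefore measure only the spread between these samples, which may be technical. The comparison asks how the transcript levels of these genes differed after 3 days on 2004, relative to OP50.

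Lysosomes are acidic compartments in which proteins taken up from outside or made by the cell are degraded. Cathepsins B, L and Z are cysteine proteases, and cathepsin D-like enzymes are aspartic proteases, and most of them are made as inactive precursors that mature in an acidic environment. The V-ATPase supplies this acidity: its V1 sector in the cytosol breaks down ATP, and its V0 sector in the membrane carries protons across. In *C. elegans* many of the protease genes are expressed in the intestine, where secreted and lysosomal enzymes digest bacterial food, and the a subunit of the V0 sector, which has several genes, differs between tissues.

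The sample totals lay between 46339828 and 46350926 counts for 2004 and between 44548901 and 50504029 counts for OP50. Values are given as CPM, each count divided by the sample total and multiplied by 1e6, and 3 counts corresponded to at most 0.0673 CPM. A gene was tested where it had at least 0.5 CPM in at least 2 samples, which 12505 genes did. In the text below, a gene passed the test when its Benjamini-Hochberg adjusted p-value from edgeR's quasi-likelihood test was under 0.1, and it was a differentially expressed gene (DEG) when its fold change was also over 2. Between the replicates of a food, 4.73% of the tested genes for 2004 and 5.26% for OP50 differed by more than 2-fold. Only RNA of whole animals was measured, and therefore a change in the number or size of the cells that express a gene and a change in RNA per cell cannot be told apart.

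The protease genes moved strongly in both directions, whereas the V-ATPase genes moved less and mostly upwards. The cathepsin B genes *cpr-1*, *cpr-4*, *cpr-5* and *cpr-8* and the aspartic protease genes *asp-1*, *asp-3* and *asp-8* were upregulated DEGs with 2004 feeding, by 2.01-fold to 12.04-fold. The cathepsin L gene *cpl-1*, both cathepsin Z genes, *cpr-3* and *asp-14* were downregulated DEGs. Among the V-ATPase genes, *vha-6* and *vha-12* were upregulated DEGs and *vha-5* was a downregulated DEG.

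Of the 28 protease genes, 21 were tested, and each of them had at least 2.18 CPM in every sample. 9 passed the test as higher with 2004 (42.9%, against 23.9% of all tested genes), 9 passed as lower (42.9%, against 25.2%) and 3 did not pass. The upregulated DEGs were 7 (33.3%, against 7.55% of all tested genes) and the downregulated DEGs were 5 (23.8%, against 14.8%). Both 2004 samples lay above both OP50 samples in 10 genes (47.6%, against 37.5%) and below both in 8 genes (38.1%, against 33.7%). The median log2 fold change of the 21 genes was -0.18, against -0.03 over all tested genes, but it was 0.031 without OP50 replicate 2 and 0.44 with no filter on low counts. The median size of the change without its sign was 1.09, against 0.51.

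**Figure D1:**
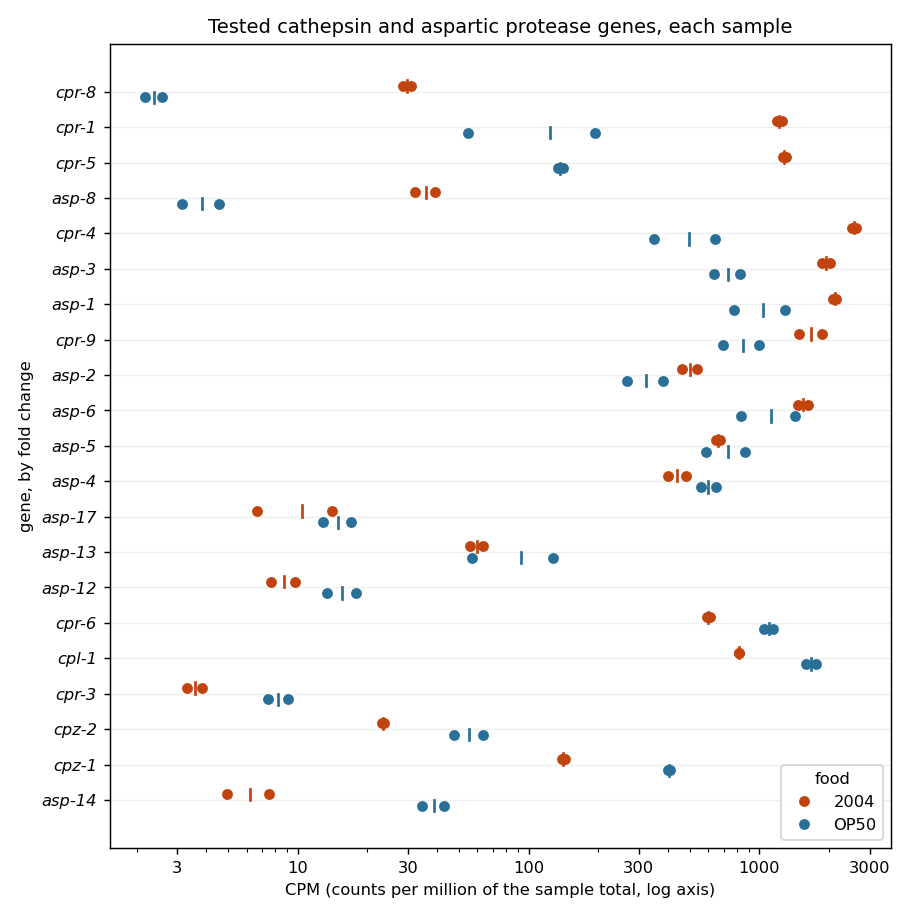
CPM of each tested protease gene in each sample, on a log axis, with the 2004 samples in orange-red above the OP50 samples in blue and a vertical tick at the mean of each food. Genes are ordered by fold change, from *cpr-8* at 31.0 and 28.6 CPM with 2004 against 2.58 and 2.18 CPM with OP50, down to *asp-14* at 7.49 and 4.94 CPM with 2004 against 34.6 and 42.9 CPM with OP50.

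The largest rises among the proteases were in cathepsin B genes. *cpr-5* had 1269 and 1298 CPM in the 2004 samples, against 134 and 141 CPM in the OP50 samples. The replicates of each food lay close together and the foods were far apart, and the log2 fold change was 3.18 ± 0.21 (SE; edgeR adjusted p = 3.98e-06), a 9.04-fold rise. Its neighbour *cpr-8* was expressed at a much lower level, with 31.0 and 28.6 CPM in the 2004 samples against 2.58 and 2.18 CPM in the OP50 samples. It rose by 3.59 ± 0.21 on the log2 scale (adjusted p = 2.7e-06), or 12.04-fold, the largest rise of any protease gene tested. The 2 genes lie head to head on chromosome V of WBcel235, *cpr-5* at 1132598 to 1134036 on the minus strand and *cpr-8* at 1134602 to 1139182 on the plus strand, with 565 bases between them.

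*cpr-1*, which encodes a cysteine protease of the gut (chromosome V, 11975551 to 11976756), had 1186 and 1254 CPM in the 2004 samples, against 54.6 and 193 CPM in the OP50 samples. The foods did not overlap, but the OP50 samples differed from each other by the largest ratio of the upregulated DEGs among the proteases. The rise was 3.29 ± 0.44 on the log2 scale (adjusted p = 0.000318), and it was 2.70 with OP50 replicate 1 left out and 4.35 with OP50 replicate 2 left out. *cpr-4*, whose product is a secreted cathepsin B (chromosome V, 6614674 to 6615851), had 2514 and 2615 CPM in the 2004 samples, against 349.6 and 639 CPM in the OP50 samples. Every 2004 value was far above the higher OP50 value, and the rise was 2.35 ± 0.29 on the log2 scale (adjusted p = 0.000192), or 5.09-fold.

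The remaining tested cathepsin B genes changed less. *cpr-9* had 1479 and 1863 CPM in the 2004 samples, against 697 and 993 CPM in the OP50 samples. It was 1.94-fold higher without overlap between the foods (log2 fold change 0.95 ± 0.25, adjusted p = 0.0126), just under the fold threshold, and without 2004 replicate 2 the adjusted p was 0.235. *cpr-6* went the other way, with 595 and 608 CPM in the 2004 samples against 1045 and 1148 CPM in the OP50 samples. Its log2 fold change was -0.91 ± 0.20 (adjusted p = 0.00529), and the adjusted p was 0.152 without 2004 replicate 1 and 0.104 without 2004 replicate 2. *cpr-3*, a gene of low level (chromosome V, 15296834 to 15298700), had 3.86 and 3.302 CPM in the 2004 samples, against 7.45 and 9.03 CPM in the OP50 samples. It fell by 1.25 ± 0.25 on the log2 scale (adjusted p = 0.00322), with no overlap. Of the 7 cathepsin B genes tested, 5 thus passed as higher and 2 as lower (23.9% and 25.2% of all tested genes did). *cpr-2*, the gene of this class that was not tested, had 0 and 8 counts in the 2004 samples and 5 and 0 counts in the OP50 samples.

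The cathepsin L and Z genes, 3 in all, were each downregulated DEGs (14.8% of all tested genes were). *cpl-1*, the cathepsin L gene, whose enzyme processes yolk in embryos and is needed for their development (chromosome V, 16592572 to 16595346), had 819 and 815 CPM in the 2004 samples, against 1750.3 and 1598 CPM in the OP50 samples. The replicates of each food lay close together, and *cpl-1* fell by 1.09 ± 0.23 on the log2 scale (adjusted p = 0.00418), a level 2.13-fold higher in OP50. Without 2004 replicate 1 the adjusted p was 0.12 and without 2004 replicate 2 it was 0.103, and without OP50 replicate 1 the log2 fold change was -0.93, under the fold threshold.

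*cpz-1*, a cathepsin Z gene needed for molting (chromosome I, 2686640 to 2689429), had 144 and 139.5 CPM in the 2004 samples, against 408 and 403 CPM in the OP50 samples. The spread within either food was small beside this gap, and the log2 fold change was -1.57 ± 0.16 (adjusted p = 6.51e-05). *cpz-2* (chromosome V, 13381189 to 13383077) had 23.2 and 23.7 CPM in the 2004 samples, against 47.3 and 63.5 CPM in the OP50 samples. It fell by 1.28 ± 0.14 on the log2 scale (adjusted p = 0.000108). *cpz-2* shares 59 exonic bases with *gcy-34* on the opposite strand, and since no source says that strand was used in the counting, a few of its counts may be those of *gcy-34*.

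Of the 17 aspartic protease genes, 11 were tested, 4 passed as higher and 4 as lower (23.9% and 25.2% of all tested genes did), and the median log2 fold change was -0.18. *asp-8* (chromosome V, 3024549 to 3027931) had 39.4 and 32.2 CPM in the 2004 samples, against 3.14 and 4.57 CPM in the OP50 samples. It rose 8.98-fold (log2 fold change 3.17 ± 0.20, adjusted p = 3.35e-06), while *asp-7*, which follows it 353 bases downstream on the same strand, had 15 and 0 counts in the 2004 samples and 0 and 3 counts in the OP50 samples. *asp-3*, a cathepsin D-like gene whose enzyme takes part in the necrotic death of neurons (chromosome X, 6791064 to 6792709), had 2023 and 1860.4 CPM in the 2004 samples, against 637 and 820.5 CPM in the OP50 samples. The foods stood well apart, and the rise was 1.37 ± 0.22 on the log2 scale (adjusted p = 0.00111).

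*asp-1*, an aspartic protease gene of the intestine (chromosome V, 19049562 to 19050752), had 2091 and 2141 CPM in the 2004 samples, against 776 and 1289.7 CPM in the OP50 samples. Its fold change of 2.01 was barely over the threshold (log2 fold change 1.004 ± 0.26, adjusted p = 0.0124). Without 2004 replicate 2 the adjusted p was 0.144, and without OP50 replicate 1 the log2 fold change was 0.76. *asp-2* had 462 and 539 CPM in the 2004 samples, against 266 and 380.3 CPM in the OP50 samples. It passed as higher by 1.51-fold (log2 fold change 0.60 ± 0.20, adjusted p = 0.0347), and the adjusted p was 0.339 without 2004 replicate 2.

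*asp-14* had the largest fall among the protease genes. It had 7.49 and 4.94 CPM in the 2004 samples, against 34.6 and 42.9 CPM in the OP50 samples (chromosome X, 6444185 to 6446664). The lower OP50 value exceeded the higher 2004 value by far, and the log2 fold change was -2.70 ± 0.19 (adjusted p = 7.26e-06), a level 6.48-fold higher in OP50. *asp-4*, whose enzyme also takes part in neuronal necrosis, had 401 and 482 CPM in the 2004 samples, against 557 and 646 CPM in the OP50 samples. The difference was small (log2 fold change -0.49 ± 0.19, adjusted p = 0.0694), and the adjusted p was 0.583 without 2004 replicate 1 and 0.183 without 2004 replicate 2. The other genes that passed as lower were *asp-12*, with 9.71 and 7.66 CPM in the 2004 samples against 13.4 and 17.8 CPM in the OP50 samples (log2 fold change -0.89, adjusted p = 0.00676), and *asp-13*. *asp-13* had 55.8 and 63.3 CPM in the 2004 samples, against 56.9 and 128 CPM in the OP50 samples, so that the foods overlapped, and without OP50 replicate 2 its log2 fold change was -0.06 (adjusted p = 0.785).

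The 3 tested protease genes that did not pass were all aspartic protease genes. *asp-6* had 1469 and 1617 CPM in the 2004 samples, against 830.2 and 1420.0 CPM in the OP50 samples. The 2004 values were the higher ones, but the OP50 replicate 2 value was close to them, and the log2 fold change was 0.43 ± 0.26 (adjusted p = 0.21). The adjusted p was 0.00541 without OP50 replicate 2 and 0.0649 with DESeq2. *asp-5* had 646 and 674 CPM in the 2004 samples, between the OP50 values of 589.8 and 869 CPM (log2 fold change -0.18 ± 0.21, adjusted p = 0.515, and 0.075 without OP50 replicate 1). *asp-17* had 6.67 and 14.1 CPM in the 2004 samples, against 12.8 and 16.9 CPM in the OP50 samples (log2 fold change -0.54 ± 0.32, adjusted p = 0.204). The log2 fold change of *asp-17* was -1.25 without 2004 replicate 2 (adjusted p = 0.000702) and -0.06 without 2004 replicate 1, and its adjusted p was 0.0803 without OP50 replicate 1.

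The 7 protease genes that were not tested were *cpr-2*, *asp-7*, *asp-9*, *asp-15*, *asp-16*, *asp-18* and *asp-19*, and the highest value of any of them was 15 counts, or 0.324 CPM. *asp-9* had 3 and 7 counts in the 2004 samples and 4 and 1 counts in the OP50 samples. *asp-16* had 0 and 9 counts in the 2004 samples and 3 and 10 counts in the OP50 samples. *asp-15*, *asp-18* and *asp-19* had 0 counts in all 4 samples, which allows a level of up to 0.0673 CPM. A difference between the foods in these genes was not detectable at this depth.

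**Figure D2:**
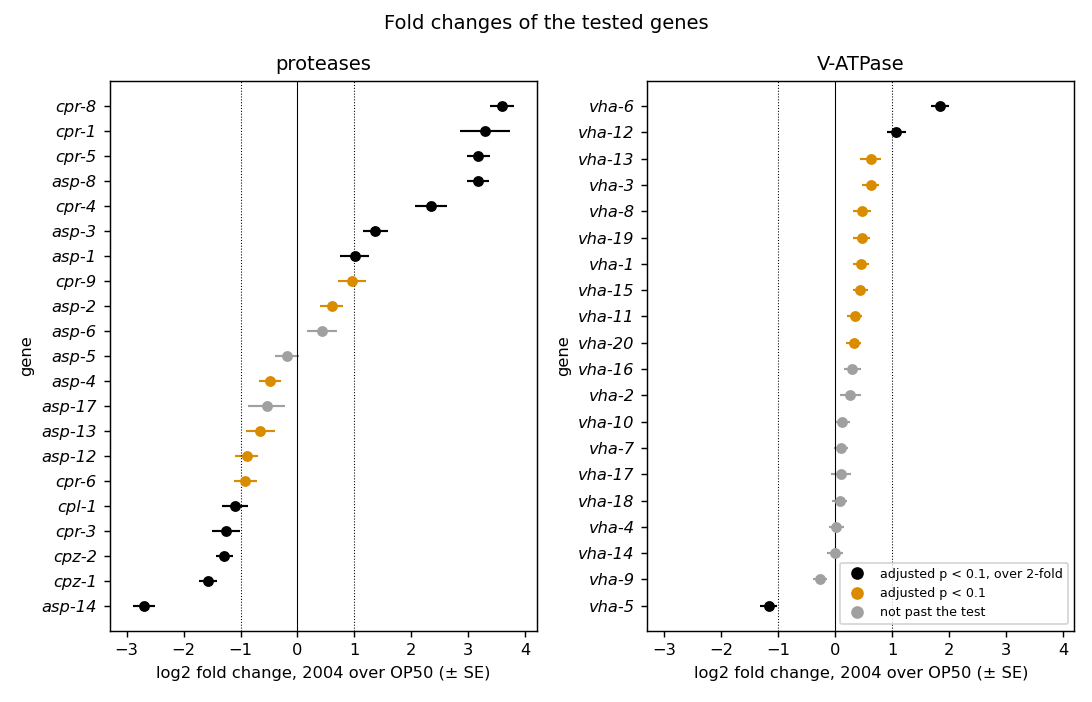
Log2 fold change (2004 over OP50) of each tested protease gene (left) and V-ATPase gene (right) with its SE, black where a gene was a DEG, orange where only the adjusted p was under 0.1 and grey where neither held, with dotted lines at a fold of 2. The proteases spread from -2.70 to 3.59, and the V-ATPase genes from -1.17 to 1.84, with most of them between 0 and 0.62.

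Summed over the 28 genes, proteases took 1.53% and 1.61% of all counts in the 2004 samples, against 0.827% and 1.08% in the OP50 samples. The mean summed level was 15678 ± 571 CPM with 2004 and 9549 ± 1806 CPM with OP50 (SD, n = 2 each), a ratio of 1.64, and the lower 2004 sum was 1.41 times the higher OP50 sum. With 2 samples against 2, an exact two-sided permutation test cannot give a p below 0.333, and this difference was not tested. The cathepsin B genes together were 2.72 times higher with 2004, and the cathepsin L and Z genes together were at 0.46 times their OP50 level. In CPM not divided by gene length, the genes that were higher with 2004 gained 8089 CPM in all and the genes that were lower lost 1959 CPM. *cpr-4* gained 2070 CPM, *asp-3* 1213 CPM, *cpr-5* 1146 CPM, *cpr-1* 1096 CPM and *asp-1* 1083 CPM, and these 5 genes made up 81.7% of the gain. Among the losses, *cpl-1* fell by 857 CPM, *cpr-6* fell by 495 CPM and *cpz-1* fell by 264 CPM.

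The makeup of the protease transcripts differed between the foods. *cpl-1* held 5.36% and 5.07% of the protease counts in the 2004 samples, against 21.2% and 14.8% in the OP50 samples. *cpr-4* held 16.5% and 16.3% in the 2004 samples, against 4.23% and 5.90% in the OP50 samples. Per kilobase of exon, *cpr-4* had the highest mean level of all protease genes with 2004, at 2271 CPM per kilobase against 438 CPM per kilobase with OP50. *cpl-1* had the highest with OP50, at 686 CPM per kilobase with 2004 against 1407 CPM per kilobase with OP50. In CPM, 18 of the 21 tested protease genes were higher in OP50 replicate 2 than in OP50 replicate 1, as were 18 of the 20 V-ATPase genes and 9046 of the 12505 tested genes. The median ratio of replicate 2 to replicate 1 was 1.33 for the proteases, against 1.15 over all tested genes. CPM are not adjusted by the TMM scaling factors of the test, which were 0.927 for OP50 replicate 1 and 1.04 for OP50 replicate 2. The counts and ratios therefore include a difference of scale over all genes.

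All 20 V-ATPase genes were tested, and the lowest value among them was 24.6 CPM. 10 passed as higher with 2004 (50%, against 23.9% of all tested genes), 1 passed as lower (5%, against 25.2%) and 9 did not pass. The upregulated DEGs were 2 (10%, against 7.55%) and the downregulated DEG was 1 (5%, against 14.8%). The foods did not overlap in 13 genes that were higher with 2004 (65%, against 37.5% of all tested genes). The median log2 fold change was 0.31, against -0.03 over all tested genes. Most of these 10 genes no longer passed when either 2004 sample was left out, where the spread was estimated from the OP50 samples alone. Fewer of all tested genes passed as higher there too. The median log2 fold change of the V-ATPase genes was 0.24 without 2004 replicate 1 and 0.40 without 2004 replicate 2. *vha-6*, *vha-12* and *vha-3* passed as higher whichever sample was left out. Without OP50 replicate 1, *vha-20* no longer passed (adjusted p = 0.127) and *vha-16* did.

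**Figure D3:**
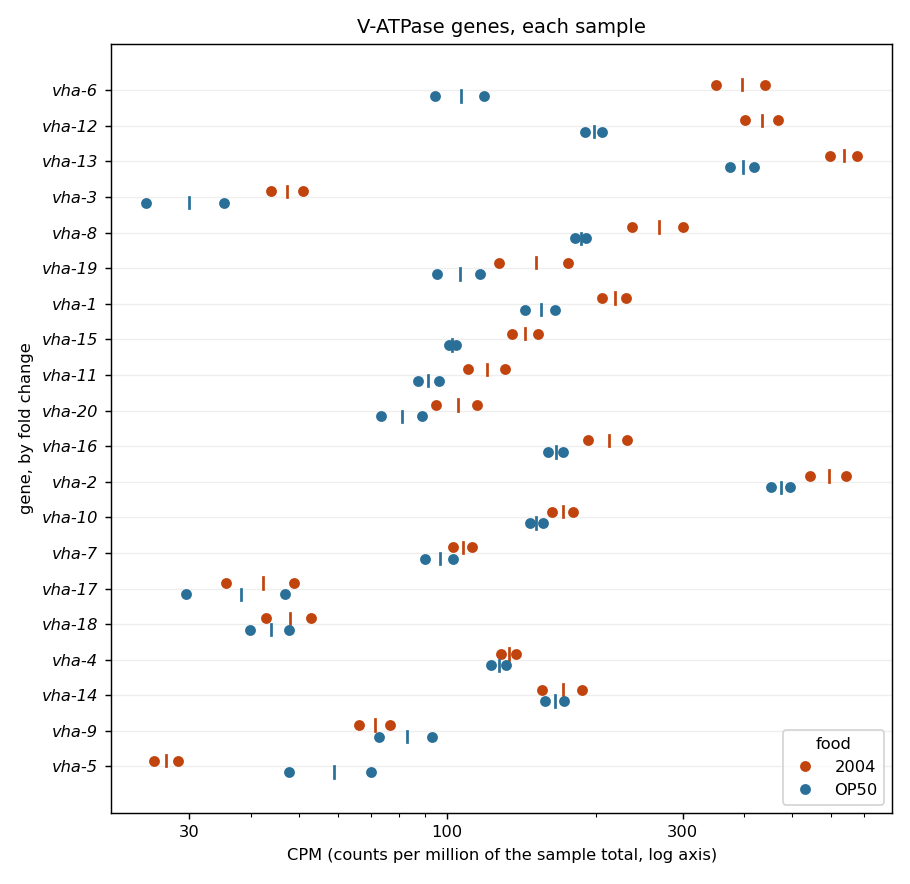
CPM of each V-ATPase gene in each sample, on a log axis, with the 2004 samples in orange-red above the OP50 samples in blue and a vertical tick at the mean of each food. The foods stand widest apart in *vha-6*, at 440.1 and 351 CPM with 2004 against 94.3 and 118.7 CPM with OP50, and *vha-5* at the bottom is lower with 2004 than with OP50.

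The 3 V-ATPase genes that moved most were 2 of the genes for the a subunit and a gene for the B subunit. *vha-6*, whose product is the a subunit of the apical membrane of the intestine (chromosome II, 11435210 to 11438452), had 440.1 and 351 CPM in the 2004 samples, against 94.3 and 118.7 CPM in the OP50 samples. It was 3.59-fold higher (log2 fold change 1.84 ± 0.16, adjusted p = 2.63e-05), and both of its annotated transcripts were upregulated DEGs. *vha-5*, the a subunit gene of the excretory canal and the epidermis (chromosome IV, 8303968 to 8307371), moved the other way, with 28.5 and 25.5 CPM in the 2004 samples against 47.8 and 70.2 CPM in the OP50 samples. It fell by 1.17 ± 0.15 on the log2 scale (adjusted p = 0.000276), with a log2 fold change of -0.96 and thus no DEG call without OP50 replicate 2. *vha-5* shares 57 exonic bases with F35H10.10 on the opposite strand.

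The a subunit is part of the V0 sector and is encoded by 4 genes in *C. elegans*, *unc-32* being the one named outside the vha- series. *vha-7*, which is expressed in the epidermis and the uterus, had 112 and 103 CPM in the 2004 samples, against 90.1 and 103 CPM in the OP50 samples (log2 fold change 0.11 ± 0.12, adjusted p = 0.51). *unc-32*, the neuronal a subunit gene, had 145 and 131 CPM in the 2004 samples, against 105 and 118.9 CPM in the OP50 samples (log2 fold change 0.26 ± 0.13, adjusted p = 0.133). Neither passed the test. Per kilobase of exon, the 4 genes summed to 242 and 201 CPM per kilobase in the 2004 samples, against 103 and 127 CPM per kilobase in the OP50 samples. *vha-6* made up 67.5% and 64.6% of this sum in the 2004 samples, against 33.9% and 34.7% in the OP50 samples, and *vha-5* made up 3.97% and 4.27% in the 2004 samples, against 15.6% and 18.7% in the OP50 samples.

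**Figure D4:**
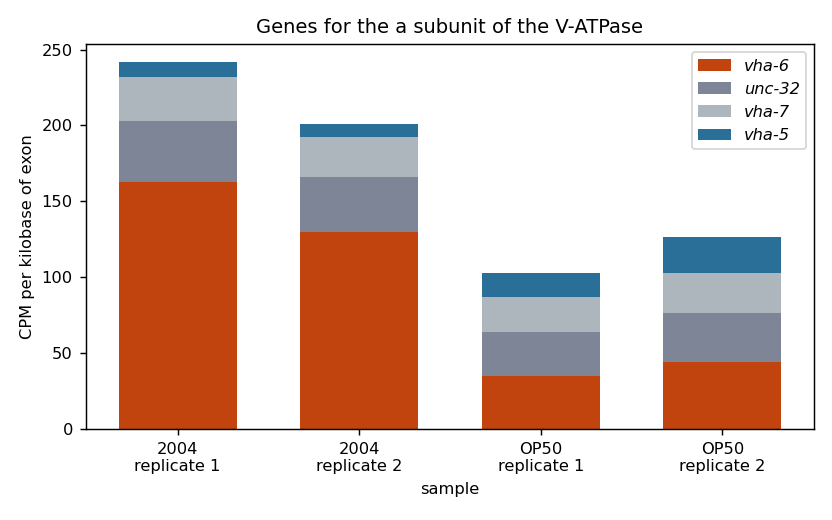
Level of the 4 genes for the a subunit in each sample, in CPM per kilobase of exon and stacked, with *vha-6* at the bottom of each bar and *vha-5* at the top. The *vha-6* section reached 163 and 129.95 CPM per kilobase in the 2004 samples, against 35.0 and 44.0 CPM per kilobase in the OP50 samples.

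The other genes of the V0 sector differed little. The c subunits form the ring that turns as protons pass. *vha-1* had 230.5 and 206 CPM in the 2004 samples, against 144 and 166 CPM in the OP50 samples, and passed as higher (log2 fold change 0.45 ± 0.14, adjusted p = 0.0278). Unlike *vha-3*, *vha-1* is not among the genes named above that passed whichever sample was left out. Its log2 fold change was 0.43 without 2004 replicate 1 and 0.48 without 2004 replicate 2. *vha-3* had 51.0 and 44.0 CPM in the 2004 samples, against 24.6 and 35.4 CPM in the OP50 samples, and also passed (log2 fold change 0.62 ± 0.15, adjusted p = 0.00861). *vha-2*, the c subunit gene with the highest level per kilobase, had 642 and 543 CPM in the 2004 samples, against 454 and 495 CPM in the OP50 samples, and did not pass (log2 fold change 0.27 ± 0.18, adjusted p = 0.251). *vha-2* and *vha-1* lie 400 bases apart on chromosome III in the same direction, and *vha-2* shares 219 exonic bases with R10E11.6 on the same strand, so that some of its counts may be those of that gene. Among c subunit transcripts per kilobase, *vha-2* held 54.5% and 53.2% in the 2004 samples against 58.6% and 56.4% in the OP50 samples.

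No other V0 gene passed. *vha-16*, the gene for the d subunit, had 231 and 193 CPM in the 2004 samples, against 159.8 and 172 CPM in the OP50 samples (log2 fold change 0.30 ± 0.14, adjusted p = 0.118, and 0.0671 without OP50 replicate 1). *vha-4*, for a further proteolipid of the ring, had 138 and 129 CPM in the 2004 samples, against 123 and 132 CPM in the OP50 samples (log2 fold change 0.02 ± 0.13, adjusted p = 0.93). *vha-17*, for the small e subunit, overlapped between the foods at 49.0 and 35.6 CPM with 2004 against 29.5 and 46.9 CPM with OP50 (adjusted p = 0.672).

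In the V1 sector and among the accessory subunits, 7 of 11 genes passed as higher (23.9% of all tested genes did), 0 passed as lower (25.2% of all did), and the median log2 fold change was 0.34. *vha-8*, *vha-11*, *vha-13*, *vha-15* and *vha-20* no longer passed when either 2004 sample was left out, nor did *vha-19* without 2004 replicate 1. *vha-12*, a gene for the B subunit, which together with the A subunit forms the ATP-binding head (chromosome X, 4191094 to 4193144), had 469 and 401 CPM in the 2004 samples, against 206 and 190.5 CPM in the OP50 samples. It was 2.11-fold higher (log2 fold change 1.07 ± 0.17, adjusted p = 0.000944), and without OP50 replicate 2 the log2 fold change was 0.94. *vha-13*, the A subunit gene, had 676 and 596 CPM in the 2004 samples, against 419 and 374 CPM in the OP50 samples. It passed with a log2 fold change of 0.62 ± 0.19 (adjusted p = 0.0251).

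*vha-8*, for the E subunit of the stalk, had 301 and 237 CPM in the 2004 samples, against 182 and 191 CPM in the OP50 samples (log2 fold change 0.47 ± 0.15, adjusted p = 0.0345). *vha-19*, an accessory subunit gene, had 176 and 127 CPM in the 2004 samples, against 95.6 and 117 CPM in the OP50 samples (log2 fold change 0.46 ± 0.15, adjusted p = 0.0342). Both passed, as did *vha-15* for the H subunit (log2 fold change 0.44, adjusted p = 0.0233), *vha-11* for the C subunit (0.34, adjusted p = 0.0542) and the accessory subunit gene *vha-20* (0.32, adjusted p = 0.0681). The 8 genes that passed as higher beside *vha-6* and *vha-12* had log2 fold changes between 0.32 and 0.62, all well under the fold threshold.

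The other 4 V1 genes did not pass. *vha-14*, for the D subunit of the central shaft, had 187 and 155 CPM in the 2004 samples, around the OP50 values of 158 and 172 CPM (adjusted p = 0.996). *vha-10*, for the G subunit, had 179.7 and 163 CPM in the 2004 samples, against 147 and 156 CPM in the OP50 samples (log2 fold change 0.12 ± 0.14, adjusted p = 0.493). *vha-9*, for the F subunit, had 76.7 and 66.2 CPM in the 2004 samples, against 72.8 and 93.3 CPM in the OP50 samples (log2 fold change -0.26, adjusted p = 0.121, and 0.0544 without OP50 replicate 1). *vha-18*, the other H subunit gene, had 53.1 and 43.0 CPM in the 2004 samples, against 39.9 and 47.9 CPM in the OP50 samples (adjusted p = 0.65). The log2 fold changes of the 17 genes outside the a subunit all lay between -0.26 and 1.07.

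Summed over the 20 genes, V-ATPase transcripts reached 4440 and 3758 CPM in the 2004 samples, against 2747 and 2970 CPM in the OP50 samples. The means were 4099 ± 482 CPM with 2004 and 2858 ± 157 CPM with OP50 (SD, n = 2 each), a ratio of 1.43. The lower 2004 sum was 1.27 times the higher OP50 sum. *vha-6* gave 22.5% of the gain in CPM, with 289 CPM, followed by *vha-13* with 239 CPM and *vha-12* with 237 CPM. Without the a subunit genes, 9 of 17 genes passed as higher and 0 as lower, where 23.9% and 25.2% of all tested genes did. The median log2 fold change of the 17 was 0.32, against -0.03 over all tested genes.

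Counts were deposited per transcript, and 19 of the 48 genes had several. Of the 75 transcripts, 60 were tested, and 10 were upregulated DEGs (4.24% of all tested transcripts were) and 6 were downregulated DEGs (7.13% of all were). The only transcript called where the gene itself was not a DEG was R10E11.8.2 of *vha-1*, with 1580 and 963 counts in the 2004 samples against 0 and 0 counts in the OP50 samples (adjusted p = 0.0419). The other *vha-1* transcript, R10E11.8.1, had 9102 and 8598 counts in the 2004 samples, against 6410 and 8361 counts in the OP50 samples (log2 fold change 0.25, adjusted p = 0.205). R10E11.8.2 thus held 14.8% and 10.1% of the *vha-1* counts in the 2004 samples and none in the OP50 samples. Adjusted p-values of the fit on single transcripts cannot be set beside those of the gene sums. *vha-3*, which has 1 transcript, had an edgeR adjusted p of 0.119 as a transcript and 0.00861 as a gene. The estimated division of reads between transcripts also varied within a food: the *asp-1* transcript Y39B6A.20.1 had 31069 and 0 counts in the 2004 samples, and F55H2.2.2 of *vha-14* had 2122 and 51 counts there, against 27 and 49 counts in the OP50 samples. Values of the summed genes are not touched by this division within a gene, though reads may also be shared between genes.

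On the genome, 22 of the 28 protease genes lie on chromosome V, with 4 on X, 1 on I and 1 on IV, while the V-ATPase genes are spread over chromosomes I, II, III, IV, V and X, with 7 of them on IV. Neighbouring protease genes did not always move together. *asp-6*, *asp-12* and *asp-5* follow each other on chromosome V within 272 and 328 bases, and *asp-12* passed as lower while *asp-6* and *asp-5* did not pass. *asp-15* lies 4708 bases from *asp-1* on the same strand and had no counts. *vha-11* and *vha-3*, 892 bases apart on chromosome IV in the same direction, both passed as higher. In all, 9 of the 48 genes share between 13 and 219 exonic bases with another protein-coding gene. Of these 9, 2 were DEGs, *vha-5* and *cpz-2*, both downregulated, where 7.55% of all tested genes were upregulated DEGs and 14.8% downregulated DEGs.

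Genes that act beside the cathepsins and the V-ATPase in the lysosome were drawn from lists chosen for this purpose. Both cystatin genes, which encode inhibitors of cysteine proteases, passed as lower (25.2% of all tested genes did). *cpi-1* had 107 and 118 CPM in the 2004 samples, against 161 and 272 CPM in the OP50 samples (log2 fold change -0.97 ± 0.20, adjusted p = 0.00363). *cpi-2* had 196 and 234.5 CPM in the 2004 samples, against 319 and 349 CPM in the OP50 samples (log2 fold change -0.67 ± 0.17, adjusted p = 0.0118, and 0.236 without 2004 replicate 1). Neither overlapped between the foods.

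Other lysosomal hydrolase genes moved both ways. Of 27 tested genes, 12 passed as higher (23.9% of all tested genes did) and 10 as lower (25.2% of all did). Among the 27, 9 were upregulated DEGs and 5 were downregulated DEGs, where 7.55% and 14.8% of all tested genes were, and the median log2 fold change was 0.22. The acid ceramidase gene *asah-1* had 647 and 863 CPM in the 2004 samples, against 52.3 and 96.96 CPM in the OP50 samples (log2 fold change 3.32 ± 0.28, adjusted p = 1.88e-05). The carboxypeptidase gene *ctsa-4.1*, of the cathepsin A family, had 83.5 and 71.3 CPM in the 2004 samples, against 1.89 and 5.03 CPM in the OP50 samples (log2 fold change 4.44 ± 0.30, adjusted p = 5.09e-06). Its log2 fold change was 5.22 without OP50 replicate 2. *ctsa-4.2* rose by 2.86 ± 0.15 (adjusted p = 1.35e-06). *ctsa-1.1* of the same family moved the other way, with 289.7 and 267 CPM in the 2004 samples against 624 and 906 CPM in the OP50 samples (log2 fold change -1.50 ± 0.20, adjusted p = 0.000304). Within this family some genes thus rose and others fell.

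Among the lysosomal lipase genes, *lipl-1*, *lipl-2* and *lipl-5* were upregulated DEGs and *lipl-4* was a downregulated DEG. *lipl-5* had 171 and 133 CPM in the 2004 samples, against 22.4 and 13.7 CPM in the OP50 samples (log2 fold change 3.00 ± 0.24, adjusted p = 1.45e-05). *lipl-1* had 37.1 and 42.4 CPM in the 2004 samples, against 0.763 and 4.32 CPM in the OP50 samples, and its log2 fold change of 3.94 ± 0.49 (adjusted p = 0.000228) was 3.25 with OP50 replicate 1 left out and 5.57 with OP50 replicate 2 left out. *lipl-4* had 6 and 0 counts in the 2004 samples, against 42 and 96 counts in the OP50 samples (adjusted p = 0.0028). The remaining upregulated DEGs, *asah-2*, *ctsa-3.1*, *lipl-2* and *gba-4*, had log2 fold changes between 1.22 and 1.66. With OP50 replicate 1 left out, *lipl-2* was at 0.65 and *asah-2* at 0.98, both under the fold threshold. With OP50 replicate 2 left out, *lipl-2* was at 2.27 and *ctsa-3.1* at 2.03. The adjusted p of *gba-4* was 0.108 without 2004 replicate 1. The remaining downregulated DEGs were the glucocerebrosidase gene *gba-2* (log2 fold change -2.51), the beta-galactosidase gene *bgal-1* (-1.29, and -0.89 without OP50 replicate 2, under the fold threshold) and the alpha-mannosidase gene *aman-1* (-1.201).

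Of 16 genes for lysosomal membrane proteins, 0 passed as higher (23.9% of all tested genes did) and 6 as lower (25.2% of all did), and *spin-3*, a spinster-like gene, was the single DEG, where 7.55% of all tested genes were upregulated and 14.8% downregulated DEGs (log2 fold change -1.49, adjusted p = 0.016). Of 12 regulator genes, 2 passed as higher and 4 as lower, shares not far from the 23.9% and 25.2% of all tested genes. The gene for the TFEB ortholog *hlh-30*, which drives lysosome and autophagy genes, had 44.4 and 44.3 CPM in the 2004 samples, against 48.2 and 55.7 CPM in the OP50 samples (log2 fold change -0.27 ± 0.12, adjusted p = 0.0982), and this adjusted p reached 0.451 under the alternatives tried. *mxl-3*, a repressor of lysosomal lipase genes, had 41.1 and 34.3 CPM in the 2004 samples, against 87.5 and 95.3 CPM in the OP50 samples, and was the single DEG of this list (log2 fold change -1.33 ± 0.12, adjusted p = 3.57e-05). *unc-32*, *rbc-1* and *rbc-2*, which act with the V-ATPase, had 0 of 3 genes passing with edgeR (23.9% of all tested genes passed as higher and 25.2% as lower), and 0 of 3 at an unadjusted p under 0.05.

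**Figure D5:**
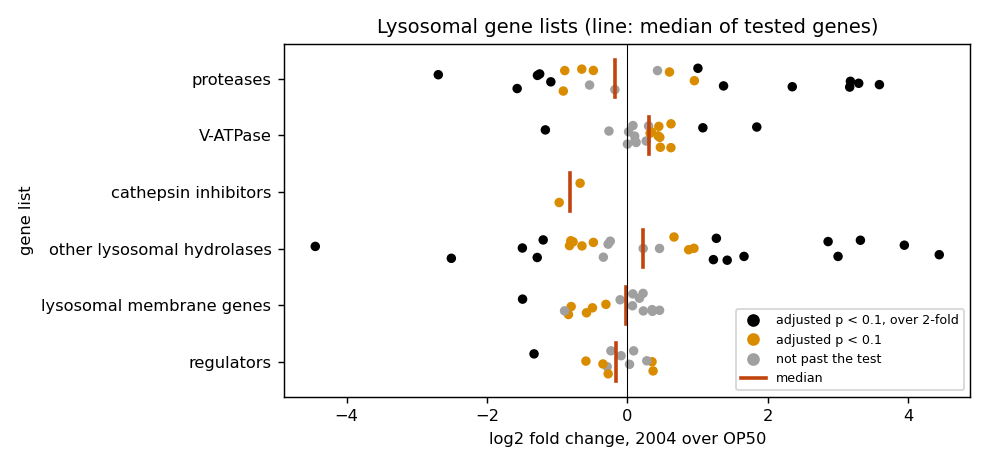
Log2 fold change (2004 over OP50) of each tested gene in 6 lysosomal gene lists, black for DEGs, orange for genes with only an adjusted p under 0.1, grey for the rest, and a red line at the median of each list. The proteases (median -0.18) and the other hydrolases (median 0.22) spread over both sides of 0, and both cathepsin inhibitors lie below 0.

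Markers of some tissues differed between the foods and those of others differed little, and their part in the results was not tested. Of 8 intestinal marker genes, 4 passed as higher and 0 as lower (23.9% and 25.2% of all tested genes did), and their summed level was 648 and 592 CPM in the 2004 samples, against 342 and 373 CPM in the OP50 samples, most of it from the brush border actin gene *act-5* with 453 and 368 CPM in the 2004 samples against 204 and 208 CPM in the OP50 samples. The intestinal transcription factor gene *elt-2* did not pass, with 11.3 and 9.06 CPM in the 2004 samples against 8.55 and 9.92 CPM in the OP50 samples (adjusted p = 0.759). Among the others that did not pass, *ges-1* had a log2 fold change of -0.69 (adjusted p = 0.122), the intestinal transcription factor gene *elt-7* of -0.18 (adjusted p = 0.649) and *mtl-2* of 0.40 (adjusted p = 0.133). These values stand beside the rises of the gut genes *cpr-1*, *asp-1* and *vha-6*. For *vha-5*, 2 of 5 excretory cell markers tested passed as higher and 2 as lower (23.9% and 25.2% of all tested genes did). Their sums were 53.3 and 45.3 CPM in the 2004 samples against 43.7 and 51.3 CPM in the OP50 samples. The epidermal markers summed to 409 and 411 CPM in the 2004 samples against 583 and 526 CPM in the OP50 samples. Of the 3 epidermal markers tested, 1 passed as higher and 1 as lower (23.9% and 25.2% of all did). The lower sum came from the collagen gene *col-19*, with 262 and 284 CPM in the 2004 samples against 485 and 428 CPM in the OP50 samples, while *lin-26* passed as higher and the median log2 fold change of the 3 was 0.40.

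For *cpl-1*, which acts in embryos, the 8 embryonic markers summed to 183 and 180.1 CPM in the 2004 samples, against 190.2 and 177 CPM in the OP50 samples, with 2 of 6 tested passing as higher and 0 as lower (23.9% and 25.2% of all tested genes did). Most of that sum was *pal-1*, at 148 and 152 CPM with 2004 against 169 and 158 CPM with OP50. The median log2 fold change of the 6 tested embryonic markers was 0.21. The 8 eggshell and oocyte markers summed to 12162 and 12307 CPM in the 2004 samples, against 12695 and 11155 CPM in the OP50 samples, with 3 passing as higher and 1 as lower (23.9% and 25.2% of all did). Within that sum, 6 of the 8 were higher with 2004 without overlap (37.5% of all tested genes were) and the median log2 fold change was 0.41, while *perm-4* had 2305 and 2577 CPM in the 2004 samples against 4863 and 5109 CPM in the OP50 samples. All 6 body muscle markers passed as lower (25.2% of all tested genes did), with sums of 583 and 524 CPM in the 2004 samples against 1567 and 1453 CPM in the OP50 samples. The 3 pharyngeal markers tested also passed as lower (25.2% of all tested genes did). The list of 4 summed to 28.0 and 25.0 CPM in the 2004 samples against 44.2 and 54.3 CPM in the OP50 samples. Of 5 neuronal markers, 1 passed as higher and 2 as lower (23.9% and 25.2% of all tested genes did). Sperm markers were nearly absent, with sums of 1.12 and 2.03 CPM in the 2004 samples against 5.54 and 5.92 CPM in the OP50 samples, and *msp-3*, *msp-142* and *gsp-3* at 0 in every sample.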

How the data were processed

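Total RNA of the 4 samples was sequenced on an Illumina HiSeq 2000. The labels describe culture in S basal medium, and the study's methods describe plates. Per the submitters' processing notes, reads were handled with FastQC 0.11.8, Trim Galore 0.6.4, HISAT2 2.1.0 (build WBcel235), SAMtools 1.7 and StringTie 2.1.1. For each transcript, the authors deposited the expected count estimated by StringTie, as a whole number and without normalization. The annotation release, read length and strand setting are not given in the sources used here.

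Transcripts were joined to the WBcel235 annotation of Ensembl release 115 by sequence name (57518 of 57834 matched, 99.5%, and 11 fitted several genes), and counts were summed per gene. Because StringTie divides shared reads, near-identical family members and overlapping genes may share counts. The main test was edgeR 4.0.16 in R 4.3.3 (glmQLFit and glmQLFTest, TMM, no covariate) on the 12505 genes that reached 0.5 CPM in 2 or more samples, and separately on 16577 transcripts, with p-values adjusted over all of them. Standard errors were the log2 fold change divided by the square root of the F statistic. The scripts were tested on simulated data. Counts of replicates were compared by chi-square, which was 31.5 times its degrees of freedom for 2004 and 70.0 times for OP50, above sampling noise. Alternatives were RLE size factors, library size alone, DESeq2 1.42.0, limma-voom (limma 3.58.1), 3 other filters on low counts, sequence names that fit 1 gene, glmTreat against 2-fold, a replicate block, the stricter adjusted p of 0.05, and each sample left out in turn, where the lone sample was assumed to vary like those of the other food.

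The genes and lists were chosen with earlier results of these data known, so lists are described by counts and medians with no set test. Named in full were every DEG among the 48 genes and the 6 members with the highest mean CPM in each of 4 classes (cathepsin B, L and Z, aspartic proteases, V0, V1 with accessory subunits). Outside them, *unc-32*, *cpi-1*, *cpi-2*, *hlh-30* and the DEGs of the other lysosome lists were named, and single marker genes and transcripts that varied within a food were chosen after their values were seen. 1 neuronal marker symbol was not matched.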

Additional observations from a re-analysis of the deposited data

How the results depend on the processing

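Of 533 values of the 41 tested genes under the alternatives, 479 kept their direction and their side of the adjusted p threshold, 31 no longer passed, 11 newly passed and 12 changed sign. Those that changed sign belong to 5 genes that did not pass: *vha-14* (0.013 with RLE size factors, 0.054 with library size alone, 0.013 with DESeq2, 0.0034 with 0.5 CPM in at least 1 sample, 0.0093 with no filter, and -0.075 to 0.084 with each sample left out in turn), and, only where a sample was left out, *vha-17* (-0.11 to 0.38), *vha-4* (-0.015 to 0.058), *vha-18* (-0.014 to 0.18) and *asp-5* (-0.35 to 0.031). With glmTreat against 2-fold, the proteases had 5 upregulated DEGs in place of 7 and 2 downregulated DEGs in place of 5, and the V-ATPase genes had 1 upregulated DEG in place of 2 and 0 downregulated DEGs in place of 1. The same counts over all tested genes were not taken with glmTreat. The median log2 fold change of the proteases was 0.44 with no filter, where more genes were tested, and ranged from -0.35 to 0.031 with each sample left out in turn. Leaving out samples gave 6 to 10 protease genes that passed as higher, 6 to 11 as lower, 6 to 8 upregulated DEGs and 5 to 6 downregulated DEGs. For the V-ATPase it gave 3 to 10 genes that passed as higher, 1 to 2 as lower, 1 to 2 upregulated and 0 to 1 downregulated DEGs, and a median of 0.24 to 0.40. The cause was not tested. The replicates share only a number: the correlation of the deviations of same-numbered samples was -0.11. With the replicate number as a block, 8 V-ATPase genes passed as higher in place of 10, the adjusted p was 0.17 for *asp-4* and 0.0326 for *asp-17*, and the protease counts were 9, 9, 7 and 5 as without it. Over all tested genes, 21.5% passed as higher and 23.0% as lower with this block, against 23.9% and 25.2% without it. With 2 samples per food, small differences such as those of most V-ATPase genes are near the limit of what could be tested, and genes under 0.5 CPM were not tested.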
